A study of Mus musculus with 17 samples.

Results

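Serum from transgenic AT-ATX mice that had formed no tumors was compared with serum from wild-type mice. The 10 samples, of 17 in the series, were chosen by their labels alone: 3 labelled as wild-type FVB/N and healthy, and 7 labelled as AT-ATX without tumors. These transgenic mice carry a transgene for Autotaxin. The other 7 samples came from AT-ATX mice with spontaneous tumors. They entered the model to estimate the spread, and their values are given beside some results. Detection in them also helped to decide which assays set the scale and which were tested. Every sample was serum from blood taken at necropsy, and the labels name 1 mouse for each. The labels give no age, sex, promoter or strain for the transgenic mice, so a difference between the groups cannot be told apart from a difference in age, sex or background. A number in each transgenic label has no stated meaning. Tumor-free replicates 4 and 5 share the number 85 and replicates 6 and 7 share 87, and an F number follows in the labels of both groups, also unexplained, so the 7 mice may not be unrelated to each other. Nothing says that the wild-type mice were litter mates.

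Autotaxin is a secreted enzyme that makes lysophosphatidic acid, a lipid that signals through receptors on many cell types and takes part in wound repair, inflammation and tumor growth. MicroRNAs (miRNAs) are short RNAs that lower the output of messenger RNAs by pairing with them, mostly through the seed, bases 2 to 8 of the miRNA. Serum carries miRNAs released by blood cells, liver, muscle and other tissues, bound to proteins or packed in vesicles. In such a sample, more cells releasing a miRNA and more RNA released by each cell cannot be told apart.

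Each miRNA was measured by real-time PCR as a quantification cycle (Ct), the cycle at which the signal crosses a threshold, so a lower Ct means more template. Of 357 miRNA assays, 317 were named for mouse and 40 for rat. Between 330 and 356 were detected in the 10 samples. The level of a miRNA was taken from its distance to the panel mean: its Ct was subtracted from the average Ct of the 252 assays that no sample lacked. It is on a log2 scale, relative to the panel, and positive levels lie above the panel mean. A difference is the mean level in tumor-free mice minus that in wild-type mice. Assays amplify with different efficiency, so levels of different assays were ranked only to choose which members of a group to name. For the same reason, whether a level lies above or below the panel mean depends partly on the assay. Blood cell, liver and muscle miRNAs were all present: miR-451a, miR-16-5p, miR-122-5p, miR-21a-5p and miR-133b-3p were detected in all 10 samples.

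The miRNAs that carry the comparison are shown with the seed in capitals, from RefSeq on the mouse build GRCm38.p6. The first 3 are the miRNAs that passed the test and the partner arm of one of them. The next 7 are miRNAs ranked after them, with both arms of mir-186, and no 2 of the 10 share a seed.
miR-1900: gGCCGCCCucucugguccuuca
miR-196b-5p: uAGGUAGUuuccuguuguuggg
miR-196b-3p: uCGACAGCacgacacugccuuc
miR-500-3p: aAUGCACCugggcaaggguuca
miR-503-5p: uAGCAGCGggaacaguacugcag
miR-338-3p: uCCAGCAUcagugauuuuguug
miR-186-3p: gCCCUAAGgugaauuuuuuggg
miR-186-5p: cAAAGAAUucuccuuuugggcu
miR-146a-5p: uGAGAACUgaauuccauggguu
miR-499-5p: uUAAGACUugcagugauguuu
The hairpin of miR-1900 lies at chr9:21032251-21032328 on the minus strand, within the span of Icam5, a gene for a neuronal adhesion protein. That of miR-196b lies at chr6:52230081-52230165 on the minus strand, in the HoxA region.

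In tumor-free AT-ATX serum 1 miRNA rose and 1 fell, of 338 assays tested. The miRNA that rose was miR-1900 and the miRNA that fell was miR-196b-5p. In the limma fit with Benjamini-Hochberg adjustment over all tested assays, 0.592% of assays passed at an adjusted p under 0.05, 0.296% as higher and 0.296% as lower. At an unadjusted p under 0.05 there were 76 assays, or 22.5%, of which 42 had a positive and 34 a negative difference. All 7 tumor-free values lay above all 3 wild-type values for 23 assays (6.8%) and below them for 20 (5.92%). The median difference over all assays was 0.03, 72 differences were above 1 and 50 were below -1, and the median standard error (SE) was 0.62. The count that passed ranged from 0, with raw Ct, with spike-in scaling or with an exact permutation test for each assay, to 15, with the tumor-bearing mice left out of the fit. Without wild-type replicate 1 it was 9.

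The level of miR-1900 was -1.43, -2.85 and -4.26 in the 3 wild-type mice. In the 7 tumor-free mice it was 3.47, 2.33, 3.45, 3.99, 1.89, 1.95 and 3.18. Every wild-type value was below the panel mean and every tumor-free value above it, with no overlap. The difference was 5.74 (SE 0.79, 95% interval 4.08 to 7.40), 53.5-fold, with an adjusted p of 0.000198 in limma. Leaving out any of the 17 samples kept it between 5.04 and 6.45, and past the threshold each time. With raw Ct the difference was 4.72 (adjusted p 0.105 in limma) and with spike-ins 4.60 (adjusted p 0.143), and both lost the call. So did the exact permutation test (adjusted p 0.0828), which cannot give a p under 0.00833 for any 1 assay here. In tumor-bearing mice the level of miR-1900 was -0.32, -0.41, -0.39, -1.03, 3.21, 0.68 and 1.79, so 6 of these 7 lay below the lowest tumor-free value. The tumor-bearing mean of 0.51 was 2.39 below the tumor-free mean, which missed the threshold in limma with an adjusted p of 0.053. That mean was 3.35 above the wild-type mean, which passed in limma with an adjusted p of 0.0159.

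The level of miR-196b-5p was -3.59, -1.40 and -3.22 in wild-type mice. In tumor-free mice it was -5.10, -5.0, -5.09, -6.61, -4.95, -4.79 and -4.81. The tumor-free values were all lower, and 6 of them lay between -5.10 and -4.79, with replicate 4 below the rest. Some of these values were near the limit of detection. With only Ct values under 35 counted as detected, 4 of 7 tumor-free and 3 of 3 wild-type mice had a value, too few for a test. The difference was -2.46 (SE 0.54, 95% interval -3.58 to -1.33), a level 5.49-fold lower, with an adjusted p of 0.0357 in limma. Of the 17 fits that left out a sample 10 kept this call, and of 15 other settings 6 did. Tumor-bearing mice had a median of -4.55, between -5.27 and -3.83. miR-196b is a HoxA-region miRNA known from blood stem cells and leukemia, and it targets several Hox messenger RNAs.

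The partner arm of the same hairpin, miR-196b-3p, was also near the limit of detection. Its level was -8.23 and -6.36 in wild-type replicates 1 and 2 and undetected in the third. Among tumor-free mice it was -5.45, -4.72, -7.21, -6.24, -5.66 and -5.32, and undetected in replicate 7. The groups overlapped, the difference was 1.53 (SE 0.83), opposite in sign to that of miR-196b-5p, and the adjusted p was 0.272 in limma. The other listed miRNAs of the Hox gene clusters differed by -1.40 (miR-10a-5p), -0.81 (miR-10b-5p) and 1.79 (miR-615-3p), and none of these passed. Of the 4 in the list, 1 was above 0 and 3 below, with a median of -1.10 (-0.43 without wild-type replicate 1). The list leaves out miR-196b-3p, which was above 0, and the rat assay of miR-196c-5p.

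**Figure D1:**
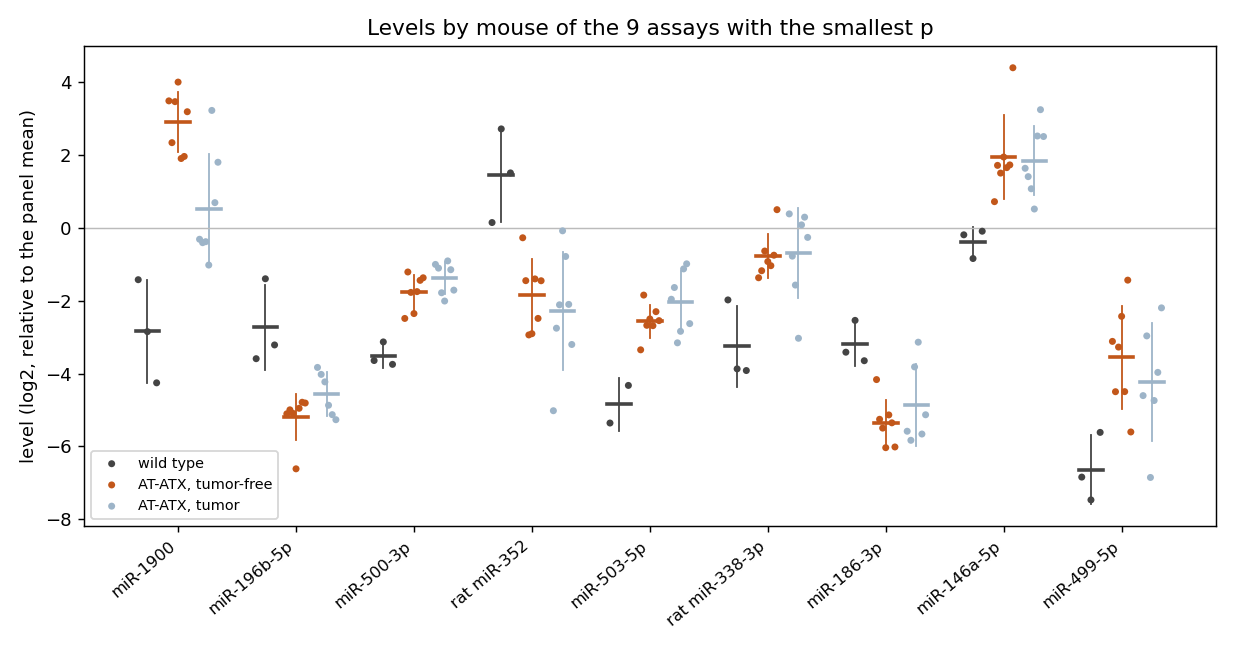
Level (log2, relative to the panel mean) of the 9 assays with the smallest p in each wild-type mouse (dark), tumor-free AT-ATX mouse (orange) and tumor-bearing AT-ATX mouse (pale blue), with horizontal bars at the mean and vertical lines of 1 SD. The 7 tumor-free values of miR-1900 all lie above 0 and the 3 wild-type values below, and wild-type replicate 1 has no point for miR-503-5p because it was not detected.

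The assays ranked next did not pass. In the 7 that followed in rank the groups did not overlap, but these were picked by their p in the same data. Of the 76 assays with an unadjusted p under 0.05 in limma, 34 did not overlap. The level of miR-500-3p was -3.64, -3.13 and -3.75 in wild-type mice and -2.49, -1.22, -1.78, -2.36, -1.75, -1.45 and -1.38 in tumor-free mice. Its difference of 1.74 (SE 0.41) had an adjusted p of 0.0509 in limma, close to the threshold, and it passed in 7 of 16 other settings. The rat assay of miR-352 had levels of 0.14, 2.71 and 1.5 in wild-type mice against -0.28, -1.45, -2.94, -2.91, -1.41, -2.49 and -1.46 in tumor-free mice. All tumor-free values were lower, with a difference of -3.30 (SE 0.84) and an adjusted p of 0.0696 in limma. For miR-503-5p, a relative of miR-16 that slows the cell cycle, wild-type replicates 2 and 3 were at -5.36 and -4.33 and replicate 1 was undetected. The 7 tumor-free values of miR-503-5p ran from -3.35 to -1.85, with a difference of 2.28 (SE 0.60, adjusted p 0.072 in limma).

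For miR-338-3p, which is abundant in oligodendrocytes, both the mouse and the rat assay were on the panel. The rat assay gave -1.98, -3.87 and -3.92 in wild-type mice and -1.37, -1.18, -0.64, -0.93, -1.04, -0.76 and 0.49 in tumor-free mice. The mouse assay gave -2.90, -4.17 and -3.43 against -1.79, -1.93, -1.32, -1.72, -2.21, -1.26 and -0.02. Tumor-free replicate 7 was the highest in both assays, and neither showed overlap. The differences were 2.48 (adjusted p 0.072) and 2.04 (adjusted p 0.149) in limma. The assays target near-identical RNAs and are not independent measurements.

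Both arms of mir-186, a hairpin in the gene Zranb2, were lower in every tumor-free mouse than in any wild-type mouse. The level of miR-186-3p was -3.42, -2.54 and -3.65 in wild-type mice against -4.17, -5.26, -5.50, -6.03, -5.14, -5.35 and -6.01, a difference of -2.15 (SE 0.59). Its Ct was under 35 in 3 of 3 wild-type and 3 of 7 tumor-free mice, so some tumor-free values were near the limit of detection. The 5p arm was at -0.95, 0.93 and -1.14 against -2.12, -1.59, -2.43, -2.84, -1.42, -2.75 and -1.95, a difference of -1.77 (SE 0.72). The adjusted p was 0.0825 for the 3p arm and 0.176 for the 5p arm in limma, so neither passed.

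Other miRNAs low in tumor-free serum without overlap were miR-101a-3p, known to repress the histone methylase Ezh2, and miR-421-3p. The level of miR-101a-3p was 4.8, 4.84 and 4.08 in wild-type mice and between 2.53 and 3.68 in the other group, which gave a difference of -1.32 (adjusted p 0.132 in limma). That of miR-421-3p was 0.15, 1.69 and 0.09 against -1.63 to -0.21, a difference of -1.76 with the same adjusted p. The mouse and rat assays of miR-7a-1-3p gave -1.29 and -1.27, both without overlap.

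**Figure D2:**
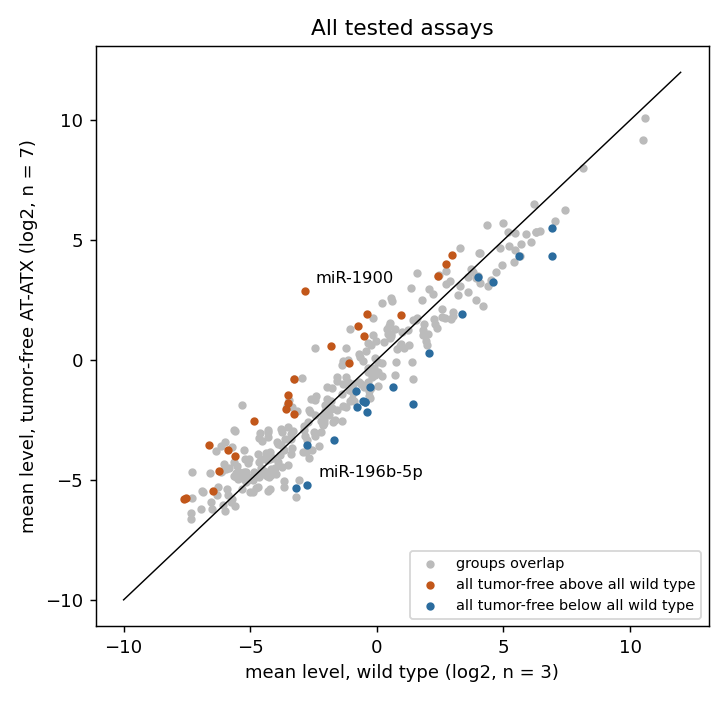
Mean level (log2, relative to the panel mean) of each of the 338 tested assays in 3 wild-type mice (horizontal axis) and 7 tumor-free AT-ATX mice (vertical axis), with the line of equal levels. Assays whose groups do not overlap are orange (23, tumor-free higher) or blue (20, tumor-free lower), and the named points, miR-1900 and miR-196b-5p, passed the test.

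The panel also held assays for 3 small nuclear RNAs, parts of the splicing machinery that are used as reference RNAs in tissue. U1 (RNU1A1) stood far apart between the groups. Its Ct was 30.9, 30.6 and 32.5 in the wild-type mice. In tumor-free mice it was 23.7, 27.7, 23.7, 22.98, 26.9, 24.5 and 24.1, so every tumor-free sample crossed the threshold earlier than every wild-type sample. The mean difference was -6.54 cycles, equal to 93.3-fold more template if each cycle doubles the product, with an exact two-sided permutation p of 0.00833, the smallest that 3 against 7 allows. Adjusted over the 8 control assays, the permutation p was 0.0667 for Ct and 0.0222 for the level. Relative to the panel mean the difference was 7.56, or 189-fold. Leaving out any 1 of the 10 samples kept the Ct difference between -7.03 and -5.94. The Ct of U1 in tumor-bearing mice was 30.0, 29.3, 28.5, 27.8, 28.4, 26.0 and 21.2. All 7 lay below every wild-type Ct, 5 of them above every tumor-free Ct and 1 below.

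U5 (RNU5G) was at a Ct of 31.2, 32.1 and 33.4 in wild-type mice and 27.9, 31.6, 27.1, 26.7, 31.5, 28.0 and 27.6 in tumor-free mice. Replicates 2 and 5 of the tumor-free group lay among the wild-type values. The Ct difference was -3.58 (exact permutation p 0.0333, adjusted over the 8 control assays 0.133). On the level scale it was 4.6, or 24.3-fold, with an exact permutation p of 0.00833, adjusted 0.0222. Replicates 2 and 5 had the highest mean Ct over the shared miRNA assays too, at 30.5 and 30.3.

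U6 gave a less clear comparison than U1 and U5. Its Ct was 24.1, 34.7 and 36.6 in wild-type mice and ran from 28.1 to 34.6 in tumor-free mice, with a difference of 0.38 cycles (exact permutation p 0.925). Wild-type replicate 1 had the lowest U6 Ct of the 10 samples, while its U1 Ct of 30.9 lay with the other wild-type mice. All 7 tumor-free U6 values lay below those of wild-type replicates 2 and 3, by little at the nearest (34.58 against 34.68). With a wild-type SD of 6.74 cycles, the exact permutation p of 0.925 does not decide whether U6 differed. The synthetic RNAs added during the work-up differed by -0.38 to 0.41 cycles between groups. Their smallest exact permutation p on the Ct scale was 0.075, for UniSp6, before adjustment. None passed, but a lone assay at the smallest possible exact permutation p reaches only 0.0667 once adjusted over the 8 control assays, as U1 did. The test on the Ct scale therefore does not show that the added RNAs were equal. On the level scale the added cel-miR-39-3p differed by 1.39, with an exact permutation p of 0.00833 (adjusted 0.0222). The panel mean itself was at a later Ct in tumor-free mice.

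**Figure D3:**
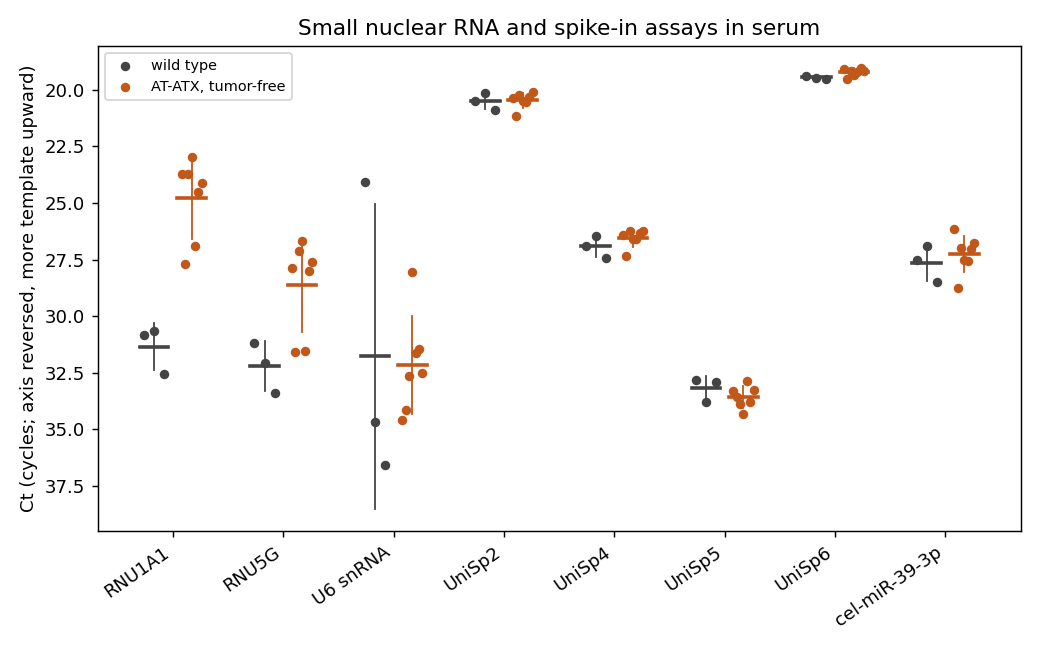
Ct in cycles (axis reversed, so that more template is upward) of 3 small nuclear RNA assays (RNU1A1, RNU5G and U6) and 5 synthetic spike-in assays in 3 wild-type mice (dark) and 7 tumor-free AT-ATX mice (orange), with bars at the mean and lines of 1 SD. The U1 groups are 6.54 cycles apart, while the spike-ins differ by at most 0.41 cycles.

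The panel as a whole was 1.02 cycles later in tumor-free serum: the mean Ct over the shared assays was 29.4 ± 0.83 (SD, n = 7) against 28.4 ± 1.5 (SD, n = 3; exact permutation p 0.208, adjusted 0.375). Raw Ct therefore moves the differences of the shared assays down by 1.02, and the spike-ins move them down by 1.14. With raw Ct, 102 of the 172 differences above 0 turn negative, and with spike-ins 112 do. Scaling to 5 reference miRNAs moves them up by 0.22 and turns 26 positive. A sign given here is relative to the panel mean. The number of assays detected was 346.6 ± 11.1 (SD, n = 7) and 347.3 ± 7.51 (SD, n = 3; exact permutation p 0.95). By Fisher's exact test, 0 of the 62 assays that lacked a value in some sample passed. The smallest p before adjustment was 0.2, so 0 lay under 0.05. Every one of the 62 was detected in at least 2 wild-type and 3 tumor-free mice. Counts in that range cannot give a p under 0.05, so the test does not decide whether detection differed.

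Red blood cells release miRNAs when they burst, which is tracked by a hemolysis index: how many cycles miR-451a, a red cell miRNA, comes ahead of miR-23a-3p. It was 3.71, 7.82 and 5.28 in wild-type mice and 4.56, 5.50, 3.87, 3.88, 5.54, 3.56 and 3.74 in tumor-free mice. Wild-type replicate 2 was the highest of the 10. Its level of miR-23a-3p was the lowest of the 10, at 3.82, and miR-23a-3p differed by 0.73 between the groups while miR-451a differed by -0.49, so the index moved with both. The mean difference of -1.23 was within the spread of the wild-type mice (exact permutation p 0.25, adjusted 0.375). Of 6 tested red blood cell miRNAs, 4 had a difference below 0 and 2 above, with a median of -0.83 (-0.04 without wild-type replicate 2), and none passed. The mean level over the 4 detected in all 10 samples was 7.21 to 9.62 in wild-type and 6.24 to 7.98 in tumor-free mice. miR-16-5p, which red cells carry in abundance, was at 9.98, 11.09 and 10.42 in wild-type mice and from 8.72 to 10.19 in tumor-free mice. miR-451a itself overlapped between the groups. With the index in the model 5 assays passed, miR-1900 and miR-196b-5p among them.

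The mir-17-92 cluster and its paralogs encode miRNAs that drive cell growth and are abundant in blood cells. Of 16 listed members tested, 14 had a difference below 0, with a median of -1.14 against 0.03 over all assays, and none passed. The paralogous cluster of mir-106b, mir-93 and mir-25 had all 5 of its assays below 0, from -1.41 to -0.45. Within it, miR-25-3p was at 6.53, 7.65 and 6.61 in wild-type mice and from 5.0 to 6.50 in tumor-free mice, without overlap. The exceptions among the 16 were miR-363-3p at 1.61 and miR-17-3p at 0.87, and miR-19b-1-5p, a passenger arm of the cluster outside the list, was at 0.69. Without wild-type replicate 2, the sample with the highest hemolysis index, the median was -0.73. Differences of the other red cell pair, mir-15b and mir-16, were -1.92 for miR-15b-5p, -1.37 for miR-15b-3p and -1.32 for miR-16-5p. The part of red cell RNA in these values was not tested.

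The let-7 family, which holds back growth and marks differentiated cells, had the main strand of all 9 tested members below 0, and none passed. The median was -0.85. Of the 7 let-7 3p arms tested, 5 were above 0 (0.10 to 0.54) and let-7f-1-3p and let-7i-3p were at -0.33 and -0.53. The median of the main strands was -0.25 without wild-type replicate 2. The lowest member was let-7f-5p, at -0.22, 3.73 and 0.80 in wild-type mice and -1.57 to 0.79 in tumor-free mice, and it differed by -2.23 (adjusted p 0.176 in limma). The mir-30 family, abundant in kidney, heart and liver, had 8 of 9 members below 0 with a median of -0.56 (-0.37 without wild-type replicate 3). In 3 of the 9 all tumor-free values were lower, against 5.92% of all assays. These were miR-30a-5p, miR-30e-5p and miR-30d-5p. The level of miR-30e-5p was 5.15, 6.19 and 5.49 in wild-type mice and 3.85, 4.40, 4.19, 4.29, 4.94, 4.15 and 4.71 in tumor-free mice, and it differed by -1.25 (adjusted p 0.157 in limma). The exception was miR-30c-2-3p, the passenger arm of one hairpin, at 2.56 (SE 0.78), where tumor-free replicate 5 stood above the other 6. The Ct of miR-30c-2-3p was under 35 in 1 of 3 wild-type and 7 of 7 tumor-free mice.

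All 6 tested mouse assays of the mir-29 family, which represses collagens and DNA methylases, had a difference above 0, with a median of 1.01. The rat assay of miR-29b-2-5p is not in this count. miR-29a-3p was at 3.08, 2.86 and 2.98 in wild-type mice and at 4.13, 3.42, 4.65, 4.44, 4.02, 4.76 and 5.19 in tumor-free mice. Every tumor-free value was higher, the difference was 1.40 (SE 0.47) and the adjusted p was 0.149 in limma. miR-29c-3p did not overlap either, at 2.64, 2.64 and 1.99 against 2.84 to 4.84. The family median stayed between 0.82 and 1.22 when any sample was left out, and was -0.01 with raw Ct and -0.13 with spike-ins. The 3 main arms share the seed AGCACCA.
miR-29a-3p: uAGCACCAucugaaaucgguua
miR-29b-3p: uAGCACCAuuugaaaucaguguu
miR-29c-3p: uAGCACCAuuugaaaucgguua

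Lymphocyte and inflammatory miRNAs had 10 of 11 differences above 0, with a median of 0.53 (0.30 to 0.80 with 1 sample left out), and none passed. The mean level over the 10 members detected in all 10 samples ran from -1.04 to -0.85 in wild-type mice and from -0.60 to 0.81 in tumor-free mice, and the members were chosen with these data known. miR-146a-5p, which NF-κB induces and which dampens Toll-like receptor signaling, was at -0.20, -0.85 and -0.10 against 0.71, 1.71, 1.49, 1.94, 1.64, 1.72 and 4.38. It did not overlap, with a difference of 2.32 (SE 0.66) and an adjusted p of 0.0899 in limma. miR-155-5p, made by activated lymphocytes and macrophages, was at -5.86, -6.12 and -5.62 against -4.27, -4.49, -3.83, -4.06, -4.35, -3.54 and -1.83, without overlap, and its difference was 2.10 (SE 0.69, adjusted p 0.141 in limma). For miR-150-5p, the miRNA of mature lymphocytes, the values were 3.17, 2.89 and 3.73 against 3.51, 3.21, 4.28, 5.69, 4.18, 4.91 and 6.97, which overlapped. Tumor-free replicate 7 was the highest of the 7 in all 3 of these miRNAs. With raw Ct the median of this group was -0.49, against -1.07 over all tested assays.

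Of 7 myeloid miRNAs, 6 had a difference above 0, with a median of 0.72 (0.42 without wild-type replicate 2 and -0.30 with raw Ct), and none passed. miR-223-3p, the miRNA of neutrophils and platelets, was at 5.13, 3.84 and 4.06 in wild-type mice and from 4.73 to 6.15 in tumor-free mice, with overlap. miR-142-3p, present in all blood cell lines, was at 5.64, 8.68 and 6.39 against 2.91 to 5.54, a difference of -2.56 with no overlap (adjusted p 0.202 in limma). Its 5p arm differed by 0.92. The 8 platelet miRNAs were split evenly, 4 above and 4 below, with a median of 0.05 (0.54 without wild-type replicate 1, 0.28 without replicate 2, -0.025 without replicate 3 and -0.035 without tumor-free replicate 7).

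Liver miRNAs showed no common direction, with 5 of 14 above 0, 9 below and a median of -0.39 (-0.71 without wild-type replicate 2 and -0.055 without replicate 1), and none passed. miR-122-5p, which is nearly specific to hepatocytes, was at 9.22, 7.21 and 7.96 in wild-type mice and 7.42, 7.75, 8.25, 8.71, 7.11, 8.53 and 8.28 in tumor-free mice. The groups overlapped and the difference was -0.12 (SE 0.71). miR-192-5p differed by -0.63 and miR-194-5p, from the same cluster, by -1.17. Against these, miR-33-5p, which lies in Srebf2 and limits cholesterol export, was at -1.43, -1.62 and -2.38 in wild-type mice and -0.21, -0.52, 0.76, 1.40, 0.12, 0.57 and 2.05 in tumor-free mice. It did not overlap, with a difference of 2.40 (SE 0.74, adjusted p 0.132 in limma), while its partner arm miR-33-3p differed by -0.11. miR-215-5p, a relative of miR-192 with intestinal expression, differed by 2.20 without overlap.

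Of 7 muscle miRNAs 6 had a difference above 0, with a median of 1.90, and none passed. The median was 0.78 without wild-type replicate 2 and 2.72 without replicate 1. miR-499-5p, encoded in the myosin gene Myh7b, was at -6.84, -7.47 and -5.61 in wild-type mice and -3.12, -4.50, -3.28, -2.43, -4.50, -1.44 and -5.60 in tumor-free mice. The groups met at -5.61 and -5.60 without overlap, and the difference was 3.09 (SE 0.89, adjusted p 0.0975 in limma). The Ct of miR-499-5p was under 35 in 1 of 3 wild-type and 7 of 7 tumor-free mice, so wild-type values were near the limit of detection. miR-133b-3p varied more within the groups, at 3.42, -1.09 and 1.68 against 4.44, 1.89, 3.81, 3.96, 1.29, 5.15 and 0.56, and its difference of 1.68 had an SE of 1.38. Tumor-free replicate 6 was the highest and replicate 7 the lowest of the 7 in both. The median of the list stayed above 0 with raw Ct (0.88) and with spike-ins (0.76).

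Of 8 endothelial and smooth muscle miRNAs, 6 had a positive difference, with a median of 0.98 (0.34 without wild-type replicate 2, 1.78 without replicate 1 and -0.04 with raw Ct), and none passed. The endothelial miR-126a-3p and miR-126a-5p had differences of -0.48 and -1.34. The stromal cluster of mir-199a-2 and mir-214 had all 4 assays above 0, from 0.86 to 2.35. miR-199a-3p was at 1.30, -3.27 and -1.23 in wild-type mice and from 0.12 to 2.10 in tumor-free mice. Wild-type replicate 2 was the lowest and replicate 1 lay among the tumor-free values.

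Epithelial miRNAs had 10 of 13 differences above 0, with a median of 0.95 (0.16 without wild-type replicate 2 and -0.22 with raw Ct), and none passed. The cluster of mir-200a, mir-200b and mir-429, which keeps epithelial cells from a mesenchymal state, had all 4 assays above 0, from 0.80 to 1.21. In the sister cluster miR-200c-3p differed by -0.61, miR-141-3p by 0.18 and miR-141-5p by 0.38, and the arms of miR-31 by -0.60 and -0.53. The cluster of mir-182, mir-183 and mir-96, known from sensory organs and many epithelia, had all 3 above 0, from 1.32 to 1.60. miR-205-5p, the miRNA of stratified epithelia, was at -1.33, 0.15 and 1.78 against 1.55, 2.25, 2.98, 1.69, 3.31, 2.97 and 1.96, a difference of 2.19 (adjusted p 0.157 in limma). Brain and neuron miRNAs were split, with 5 of 8 above 0 and a median of 0.16 (0.09 to 0.33 with 1 sample left out and -0.86 with raw Ct). Among them miR-9-5p, a neural miRNA, differed by -1.93 and miR-128-3p by 1.29.

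**Figure D4:**
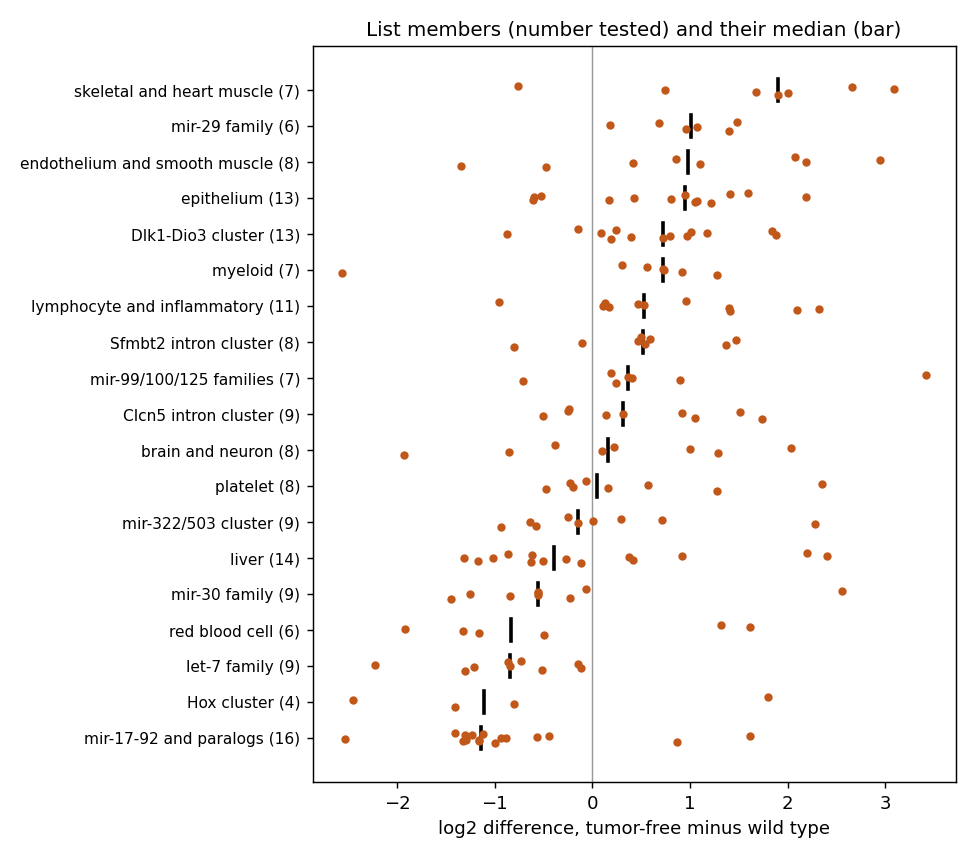
Differences in level (log2, tumor-free minus wild type) of the tested members of 19 groups of miRNAs, with a bar at each group's median and the number of members in brackets; groups overlap in membership. All 9 let-7 main strands (3p arms not included) lie below 0 and all 6 mouse mir-29 assays above 0, while the 8 platelet members lie on both sides.

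Genomic neighbours were also compared, because miRNAs cut from one transcript can share their supply. In the Clcn5 intron cluster on the X chromosome, the home of miR-500-3p, 6 of 9 assays were above 0 and 3 below, with a median of 0.32 (0.70 without wild-type replicate 2 and 0.0024 without replicate 1). The cluster of mir-322 and mir-503 had 4 of 9 above 0, with a median of -0.14 (-0.72 without wild-type replicate 2 and 0.49 without replicate 3), and its members lay on both sides: miR-503-5p differed by 2.28 and miR-322-5p by -0.93. The imprinted Dlk1-Dio3 cluster had 11 of 13 above 0 with a median of 0.72, but this was -0.10 without wild-type replicate 2 and 1.88 without replicate 1. In the placental Sfmbt2 intron cluster 6 of 8 were above 0, with a median of 0.52 (0.02 without wild-type replicate 2). In the mir-99, mir-100 and mir-125 families 6 of 7 were above 0. Their median was 0.36, and it was -0.59 without wild-type replicate 2 and 1.59 without replicate 1. The highest was miR-125b-2-3p, at -3.20, -6.47 and -6.26 in wild-type mice and -0.55, -3.90, -2.51, -3.10, 0.69, -2.08 and -1.79 in tumor-free mice, and it differed by 3.42 (SE 1.12, adjusted p 0.141 in limma) with overlap at wild-type replicate 1. None of these 5 groups had a member past the test. With raw Ct all 5 medians were below 0, and so was the median of all tested assays, at -1.07.

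miRNAs that share a seed were set side by side, since they can bind the same sites. Only assays matched to RefSeq could be grouped by seed. Of 14 seeds with at least 3 such members, 5 had all of them on one side of 0. The seed GAGGUAG of let-7 had 10 members, miR-1961 among them, all below 0, with a median of -0.86. The seed AAAGUGC, of miR-17-5p, miR-20a-5p, miR-93-5p and both miR-106 relatives, had 5 members, all below 0 with a median of -0.996. The seed AGCAGCA, of miR-15, miR-16, miR-195a and miR-322, had 5 members, all below 0 with a median of -0.93. The seed of miR-503-5p, AGCAGCG, is not the same, and its difference was 2.28.
miR-15b-5p: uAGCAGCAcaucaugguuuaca
miR-16-5p: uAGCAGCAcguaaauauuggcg
miR-322-5p: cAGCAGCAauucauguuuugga
The seed GUAAACA had 3 matched members, miR-30a-5p, miR-30c-5p and miR-30e-5p, all below 0 with a median of -1.25. Unmatched in the family were miR-30b-5p at -0.23 and miR-30d-5p at -0.56. The seed AGCACCA of miR-29 had 3, all above 0. In contrast, AUUGCAC had miR-25-3p and miR-92a-3p below 0 and miR-32-5p and miR-363-3p above 0. Members of a family can cross-react in PCR, so they are not independent.

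Both arms were tested for 62 hairpins. The arms lay on the same side of 0 in 44 (17 above, 27 below) and on opposite sides in 18, and the median distance between them was 0.50. Across hairpins, which share the same 10 samples and scaling, Pearson's r was 0.34, given as a description. The arms were more than 2 apart in 7 hairpins. The widest was mir-196b, where the 5p arm lay 3.99 below the 3p arm. In mir-142 the 5p arm lay 3.48 above the 3p arm. The others were mir-1839, mir-33, mir-503, mir-101a and mir-34b.

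**Figure D5:**
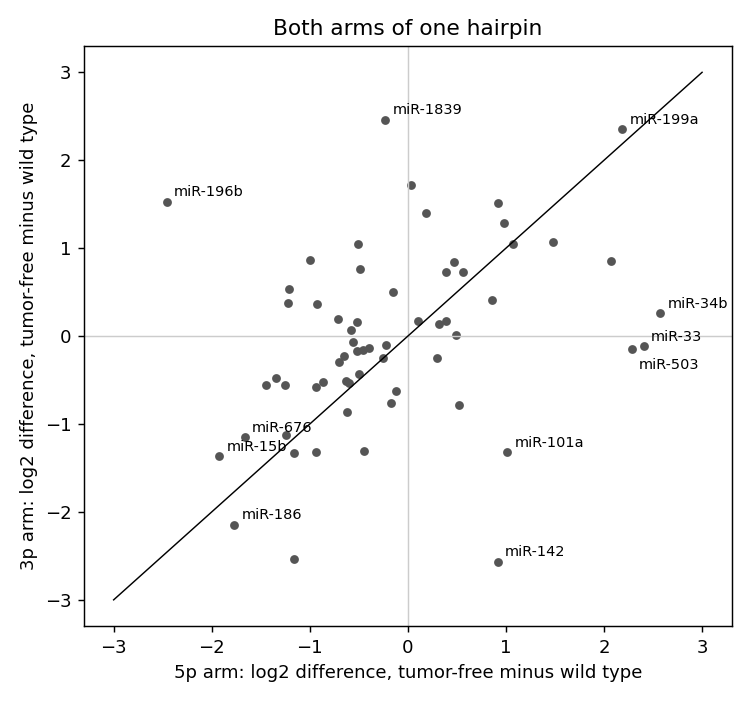
Difference in level (log2, tumor-free minus wild type) of the 5p arm (horizontal axis) and the 3p arm (vertical axis) for 62 hairpins with both arms tested, with the line of equal differences. The 7 hairpins whose arms are over 2 apart are named, as are mir-186, mir-199a, mir-676 and mir-15b, which lie near the line, and mir-196b is the farthest from it.

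Rat assays of the same name served as a second reading of some mouse miRNAs. Of 19 pairs tested, 18 lay on the same side of 0 and 15 were within 0.5 of each other, with a median gap of 0.24. For miR-143-3p of smooth muscle the differences were 1.10 and 1.09. The largest gap, 2.71, was in miR-208a-3p of heart muscle, at 2.66 by the mouse assay and -0.04 by the rat assay. The mouse assay was detected in 2 of 3 wild-type mice and was near the limit of detection. Its Ct was under 35 in 0 of 3 wild-type and 4 of 7 tumor-free mice, against 3 of 3 and 5 of 7 for the rat assay. For miR-802-5p of liver the mouse assay gave -0.27 and the rat assay -1.61. miR-223-3p gave 1.28 and 0.44.

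The files hold a further split among the tumor-free mice. The last 2 decimals of the Ct values separate the assays into 2 sets in 13 samples, and do not in 4, among them tumor-free replicates 4, 5 and 7. All wild-type samples are of the first kind. What this marks is not stated. The tumor-free mean of miR-1900 was 2.80 in the 4 samples of the first kind and 3.02 in the other 3. With samples of the first kind alone, the difference was 5.65 (adjusted p 0.00609 in limma). For miR-196b-5p it was -2.26, with an adjusted p of 0.192, so that call was lost, as it was with the split as a block (-2.44, adjusted p 0.113). The U1 difference in Ct with the first kind alone was -6.44, and that of U5 was -3.57.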

How the data were processed

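The authors deposited 1 table of Ct values, in cycles, not normalized per its name, for 365 assays. Per the labels' protocols, RNA from 50 µL of serum was copied to cDNA and run for 40 cycles of SYBR Green PCR on 2 serum miRNA panel plates. The threshold, plate calibration and detection rule are not given in the sources used here. Empty cells were taken as not detected, and no value lay at or above 37.

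The 338 assays detected in at least 2 wild-type, 5 tumor-free and 5 tumor-bearing mice were tested. The other 19 were set aside, some of them, such as miR-708-5p, only because too few tumor-bearing mice had a value. Levels of all 17 samples were fitted with 3 groups by lmFit and eBayes of limma 3.58.1 (R 4.3.3). The two-sided p-values were adjusted by the Benjamini-Hochberg method over the 338 assays, with a threshold of 0.05. Among the 10 samples, 72 values in 49 tested assays were missing and were left out of the means. Single values were compared by exact two-sided permutation of the 120 regroupings of 7 and 3, adjusted over the 3 sample measures or over the 8 control assays. Fisher's exact test was used for detection. The number of cycles limits what can be detected, and a Ct is not a count of molecules. Labels name separate mice, but nothing says that they were raised or handled apart. The p-values set a difference against the spread between these samples, which may not be the spread between independent mice.

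Named assays were those past the threshold, the 15 with the smallest p in each direction, the 2 highest members of each list, 8 serum markers, and their other arms, rat assays and cluster neighbours, 90 in all. Other miRNAs named as group members, or for an arm, seed or rat gap, were chosen after their values were seen. The groups and lists, from textbook knowledge, were chosen with earlier results of these data known, and hold mouse assays only. Alternatives were other scalings, missing values, detection limits, models, covariates, blocks and samples left out. Sequences and positions came from RefSeq on GRCm38.p6 and matched 251 of the tested assays. Clusters are hairpins within 10000 bases on one strand. Python 3.11.15 with pandas 2.3.3 and scipy 1.17.1 was used.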

Additional observations from a re-analysis of the deposited data

Results flagged for a closer look

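Of 95 values per mouse examined among the 7 tumor-free samples, 9 had 1 sample far from the other 6, by Dixon's ratio of the gap to the range with a critical value of 0.568. Chance gives about 1 in 20. Tumor-free replicate 7 accounted for 4: it was high in miR-146a-5p (4.38, others 0.71 to 1.94), miR-155-5p (-1.83, others -4.49 to -3.54), miR-338-3p (-0.0196, others -2.21 to -1.26) and the rat assay of miR-338-3p (0.49, others -1.37 to -0.64). Replicate 4 was low in miR-196b-5p (-6.61, others -5.10 to -4.79) and miR-30a-5p (0.153, others 1.81 to 2.44). Replicate 1 was low in miR-362-3p (-0.27, others 0.56 to 1.14) and high in miR-30e-3p (0.57, others -0.97 to -0.49). Replicate 5 was high in miR-30c-2-3p (-1.12, others -5.08 to -3.73).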

How the results depend on the processing

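The count of assays past the threshold was 2 and depended on the setting. It was 7 (4 higher, 3 lower) with each plate centred, 5 with the hemolysis index in the model, 4 with missing values at Ct 37 with or without the detection filter, 4 with reference miRNAs and 15 without the tumor-bearing mice. It was 1 with the median of the shared assays, with trend and robust estimation, with the pattern of last decimals as a block and with the samples of one pattern alone. It was 0 with raw Ct (63 at an unadjusted p under 0.05), with spike-ins (73) and with exact permutation (85), where the smallest adjusted p was 0.0828. Leaving out 1 sample gave 1 to 9 assays. With wild-type replicate 1 left out there were 9, without tumor-free replicate 1 or tumor replicate 5 there were 6 and without tumor replicate 4 there were 5. For miR-1900 the adjusted p ranged from 0.000102 to 0.143 over the 16 settings fixed at the start, 13 of which kept it, and for miR-196b-5p from 0.0217 to 0.192 over 15 (0.170 with the block on the F number). The difference in assays detected, -0.76, ranged from -4.43 to 3.07 when 1 sample was left out, and was above 0 in 3 of those. An F number (F1, F2 or F4) recurs across groups with no stated meaning. Of 4 wild-type and tumor-free pairs with the same number, 3 had deviations from the group means that correlated above 0.1 (0.22, 0.40 and 0.63 over 252 assays) and 1 at -0.26. In those 3 pairs the wild-type sample most like the tumor-free one was that with its own number. The numbers were not taken as a pairing, and whether they mark something shared is not known. With this number as a replicate block over the 12 samples that share one, chosen after seeing the data, 1 assay passed, miR-1900 (5.47, adjusted p 0.00967). The same samples without the block also gave 1. With the label number as a random block 3 assays passed. The 3 wild-type mice, with a median SE of 0.62 per assay, limit what could be detected.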
